A study of Mus musculus with 106 samples.

Results

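Myelin and oligodendrocyte transcripts were followed across the tissues of mice housed at 3 temperatures. The set held 8 genes, Mbp, Mag, Mog, Mobp, Cnp, Olig1, Olig2 and Sox10, chosen by their symbols and present among the 21647 genes of the 8-tissue table, the 23393 of the warm table and the 23420 of the spinal cord and bone marrow tables. All mice were male C57BL/6J without any transgene or deletion, 8 weeks of age at the start. The cold group spent 2 weeks at 10 °C after stepwise acclimatization at 18 °C and then 14 °C, 5 days at each step, the warm group spent 4 weeks at 34 °C, and each had its own controls at 22 °C. According to the labels the cold mice were 11 weeks old at collection, but 12 weeks old for quadriceps, and the warm mice were 12 weeks old. Cold-exposed mice and their controls came from another supplier than the warm-exposed mice and theirs, so supplier and the 2 experiments cannot be told apart. Brain and hypothalamus of the cold experiment gave 3 libraries for each temperature, each a pool of 2 mice, and spinal cord gave 5 libraries for each temperature from single mice. Brain of the warm experiment, taken without the hypothalamus, gave 3 libraries for each temperature. The other tissues were interscapular brown fat (iBAT), inguinal subcutaneous fat (ingSAT), perigonadal visceral fat (pgVAT), ileum, liver, spleen, quadriceps and bone marrow.

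Oligodendrocytes wrap axons of the central nervous system in myelin, a stack of compacted plasma membrane rich in lipid, and Schwann cells do the same in peripheral nerve. The basic protein MBP and the oligodendrocyte protein MOBP lie on the cytoplasmic faces of the sheath, MAG sits in the innermost wrap facing the axon, MOG on the outermost surface, and CNP keeps cytoplasm-filled channels open. The bHLH factors OLIG1 and OLIG2 specify the lineage, and SOX10, together with MYRF, switches on the myelin genes. Several of the 8 are not exclusive to oligodendrocytes: SOX10, MBP and MAG are also made by Schwann cells, CNP is made at low levels in many cells, and the Mbp locus yields golli transcripts in immune cells, which gene counts do not separate from myelin Mbp.

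The promoters of the myelin genes are shown because their regulators are members or partners of members. In the GRCm38 assembly, Mag lay on the minus strand at chr7:30899176-30914873, Mog on the minus strand at chr17:37010743-37023398, Mobp on the plus strand at chr9:120149707-120181484 and Cnp on the plus strand at chr11:100574904-100591729. The neighbours Olig2 at chr16:91225457-91228677 and Olig1 at chr16:91269772-91271933 were both on the plus strand, and Sox10 was on the minus strand at chr15:79154908-79165240. RefSeq promoter windows on GRCm38.p6 were found for 5 of the 8 members, and those of 4 myelin genes, for Mag the first of its 3 entries, are given 5′ to 3′ on the coding strand, as the bases before the first annotated transcript start. Capitals mark matches to SOX and MYRF motifs on either strand. The motif of SOX factors was searched as ACAAAG, which reads CTTTGT on the opposite strand. A variant of it, ACAATG, was searched too and is not in these stretches. The motif of MYRF was searched as CTGGCAC and, in a variant, as CTGGTAC. The latter reads GTACCAG on the opposite strand.
Mag, chr7:30914874-30915113, minus strand: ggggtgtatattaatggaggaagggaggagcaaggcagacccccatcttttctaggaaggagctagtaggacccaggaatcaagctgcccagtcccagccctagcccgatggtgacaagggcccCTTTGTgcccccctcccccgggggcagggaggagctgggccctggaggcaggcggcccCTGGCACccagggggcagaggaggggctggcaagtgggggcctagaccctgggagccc
Mog, chr17:37023399-37023648, minus strand: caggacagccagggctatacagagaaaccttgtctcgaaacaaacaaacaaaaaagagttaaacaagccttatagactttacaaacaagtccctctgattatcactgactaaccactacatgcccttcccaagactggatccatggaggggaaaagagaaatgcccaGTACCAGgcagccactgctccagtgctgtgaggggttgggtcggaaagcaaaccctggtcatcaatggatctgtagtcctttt
Mobp, chr9:120149492-120149706, plus strand: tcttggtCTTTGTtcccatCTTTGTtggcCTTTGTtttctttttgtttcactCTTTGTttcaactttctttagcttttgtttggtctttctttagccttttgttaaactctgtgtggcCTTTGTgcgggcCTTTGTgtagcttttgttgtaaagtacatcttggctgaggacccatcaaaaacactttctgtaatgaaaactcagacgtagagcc
Cnp, chr11:100574689-100574903, plus strand: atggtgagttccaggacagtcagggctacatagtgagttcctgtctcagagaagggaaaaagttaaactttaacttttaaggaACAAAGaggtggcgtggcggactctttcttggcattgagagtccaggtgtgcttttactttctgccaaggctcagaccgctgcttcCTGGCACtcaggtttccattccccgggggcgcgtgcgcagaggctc
The Mag window held 1 SOX match and 1 MYRF match, as did the Cnp window, the Mog window held 1 MYRF match, and the Mobp window held 6 SOX matches. Of all 32851 promoter windows of 250 bases, 16.5% held ACAAAG, 10.7% ACAATG, 4.2% CTGGCAC and 1.8% CTGGTAC on either strand. The E-box of bHLH factors, the family of OLIG1 and OLIG2, was searched as CANNTG and is not marked: the Mag and Cnp windows held 1 match each and those of Mog and Mobp none, where 66.2% of all windows held it. These are matches of letters and not binding sites.

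Depth ran from 12663232 to 22049093 counted reads in the cold-set brain and hypothalamus libraries, from 21953207 to 29029283 in spinal cord and from 48996910 to 62880248 in the warm-set brain. The tissues carried their own marker genes: the summed level of the spinal cord and hindbrain markers was 330.3 to 395 CPM (counts relative to library size) in spinal cord and at most 4.39 CPM in brain and hypothalamus, and that of the hypothalamic markers was 723 to 853 CPM in hypothalamus and 56.1 to 83.5 CPM in brain. One brain library stood apart, replicate 2 at 22 °C, and was left out of the comparisons. Its 8 members summed to 2427 CPM against 5990 and 6622 CPM in the other 22 °C libraries, its neuronal markers to 3801 CPM against 8785 and 8268 CPM, and its choroid plexus markers to 3564 CPM against 1284 and 856 CPM. The result for cold-exposed brain is given with and without this library. The members are the genes under test, so their low sum is no independent ground for leaving the library out.

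The 8 members together took 0.631% ± 0.0447 (SD, n = 2) of all counted reads in brain at 22 °C and 0.384% ± 0.0148 (SD, n = 3) in hypothalamus. In spinal cord, which was counted in another table, the share was 2.29% ± 0.164 (SD, n = 5). On a scale that corrects for exon length and library total (RPKM), spinal cord at 22 °C was ordered Mbp (2169), Cnp (353), Mag (265), Mog (207), Mobp (194), Olig1 (127), Sox10 (51.9) and Olig2 (23.99), with overlapping libraries between Mag and Mog and between Mog and Mobp. Brain of the cold set ran from Mbp at 465.99 RPKM through Mobp at 180.0, Cnp at 165, Mag at 71.9, Olig1 at 49.99 and Mog at 38.7 to Sox10 at 13.1 and Olig2 at 7.44 RPKM, and only Mobp and Cnp overlapped. Hypothalamus kept that order, from 234 RPKM for Mbp to 12.7 RPKM for Olig2, and there Sox10 (13.8 RPKM) and Olig2 overlapped. The structural myelin genes stood above the 3 transcription factors, except that Olig1 exceeded Mog in brain and hypothalamus.

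The place of Mobp in this order differed between count tables. The ratio of Mobp to Mog counts was 15.9 to 19.99 in the brain and hypothalamus libraries of the 8-tissue table and 3.48 to 5.30 in the spinal cord and warm-set libraries. In warm-set brain at 22 °C, Mobp stood at 49.2 RPKM beside Mog at 51.8 RPKM. The tables were made with different library kits and at different sites, and whether these set the difference was not tested, so levels are compared only within a table. The tissue map of levels shows the members side by side.

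**Figure D1:**
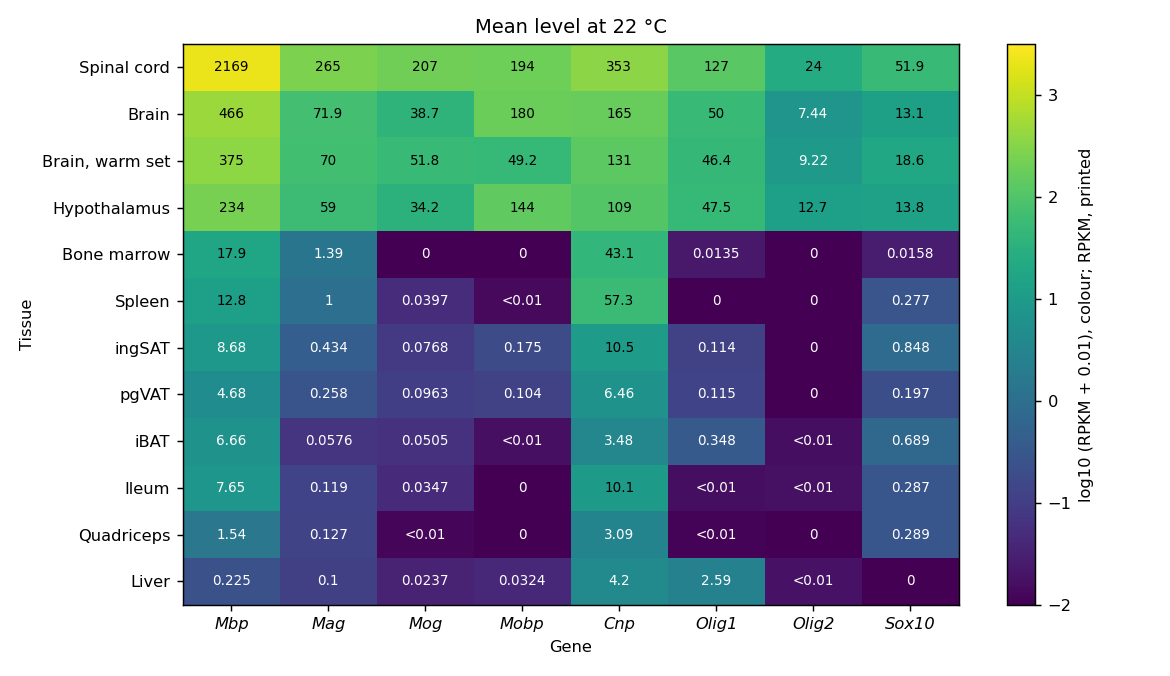
Mean RPKM at 22 °C of the 8 members (columns) in 12 tissues or tissue sets (rows), with RPKM printed and the colour on a log10 scale. Spinal cord, bone marrow, and warm-set brain with quadriceps come from count tables of their own and are not ranked against the other rows. Brain, hypothalamus and spinal cord carry every member, with Mbp at 2169 RPKM in cord, while Olig2, Mobp and Mog are near 0 elsewhere and Mbp and Cnp are present in bone marrow (17.9 and 43.1 RPKM) and spleen (12.8 and 57.3 RPKM).

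Whether cold exposure altered these genes was asked first in brain. With 22 °C replicate 2 left out, the myelin transcripts were slightly lower at 10 °C. Of the 8 members, 7 had a log2 fold change below 0. Their median was -0.21 (0.030 with that library included) against -0.0063 over all 13976 genes tested. At an unadjusted p of at most 0.05, 5 members were lower (Mbp, Mag, Mobp, Cnp and Olig1), where 3.82% of all genes were. A call in this work needs that p and a fold change above 1.5, which 0.801% of all genes met in this comparison and no member did by edgeR's quasi-likelihood test, by its exact test or by DESeq2. At an adjusted p under 0.05 there were 0 members by the first and second of these tests and 1, Mbp, by DESeq2 (0.0248). With no filter beyond 1 count the quasi-likelihood test gave 2, Mbp (adjusted p = 0.0256) and Mag (adjusted p = 0.00862). In bulk tissue, fewer oligodendrocytes and less RNA per oligodendrocyte cannot be told apart.

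Mbp stood at 3034, 3140 and 3212 CPM in the 10 °C brain libraries and at 3652 and 4161 CPM at 22 °C. The groups did not overlap, and the log2 fold change was -0.32 (SE 0.0861, adjusted p = 0.235). Mag stood at 238, 247 and 205 CPM against 249.5 and 330.1 CPM, again without overlap, but 1 control library was far above the other (log2 fold change -0.34, SE 0.0999, adjusted p = 0.320). Cnp, at 521, 540 and 468 CPM against 548 and 645 CPM, was also separated (-0.23, SE 0.0845, adjusted p = 0.449). Mobp, at 1012, 996 and 1166 CPM against 1277 and 1162 CPM, overlapped narrowly through 1 library of each group (-0.20, SE 0.0837, adjusted p = 0.486). Mog, at 63.0, 56.1 and 58.3 CPM against 66.2 and 64.3 CPM, did not overlap, and its change of -0.14 (SE 0.0809, adjusted p = 0.638) had an unadjusted p above 0.05. Among all genes, 12.4% were lower at 10 °C without overlap, beside 5 of the 8 members.

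The 3 transcription factors differed from each other in brain. Olig1 stood at 93.5, 95.7 and 86.5 CPM at 10 °C and at 98.8 and 115 CPM at 22 °C, without overlap (-0.22, SE 0.0823, adjusted p = 0.449). Olig2, its neighbour on the chromosome, stood at 19.6, 20.98 and 17.6 CPM against 18.6 and 18.7 CPM, with controls inside the cold range (0.060, 95% interval -0.16 to 0.28). Sox10 stood at 38.1, 37.0 and 33.5 CPM against 35.1 and 43.8 CPM, where the controls lay on both sides of most cold libraries (-0.13, 95% interval -0.34 to 0.079).

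The brain result rests on few controls. Without 22 °C replicate 3 only Mobp kept a p of at most 0.05 (log2 fold change -0.27, adjusted p = 0.999) and the median of the members was -0.11. Without 22 °C replicate 1 there were 5 such members, the median was -0.30, and Mag reached an adjusted p of 0.0335 (-0.52). With all 3 libraries at 22 °C, replicate 2 included, no member had such a p and the median was 0.030. Other markers differed between the same libraries: 3 of 4 pituitary genes were called lower at 10 °C (median log2 fold change -2.34), 4 of 6 hypothalamic genes were called higher (median 0.75) and 4 of 4 blood genes were higher at p of at most 0.05. Over all genes, 0.801% were called in either direction and 5.03% were higher at such a p. Of 10 neuronal genes none had such a p. The part of these in the result for myelin genes was not tested.

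**Figure D2:**
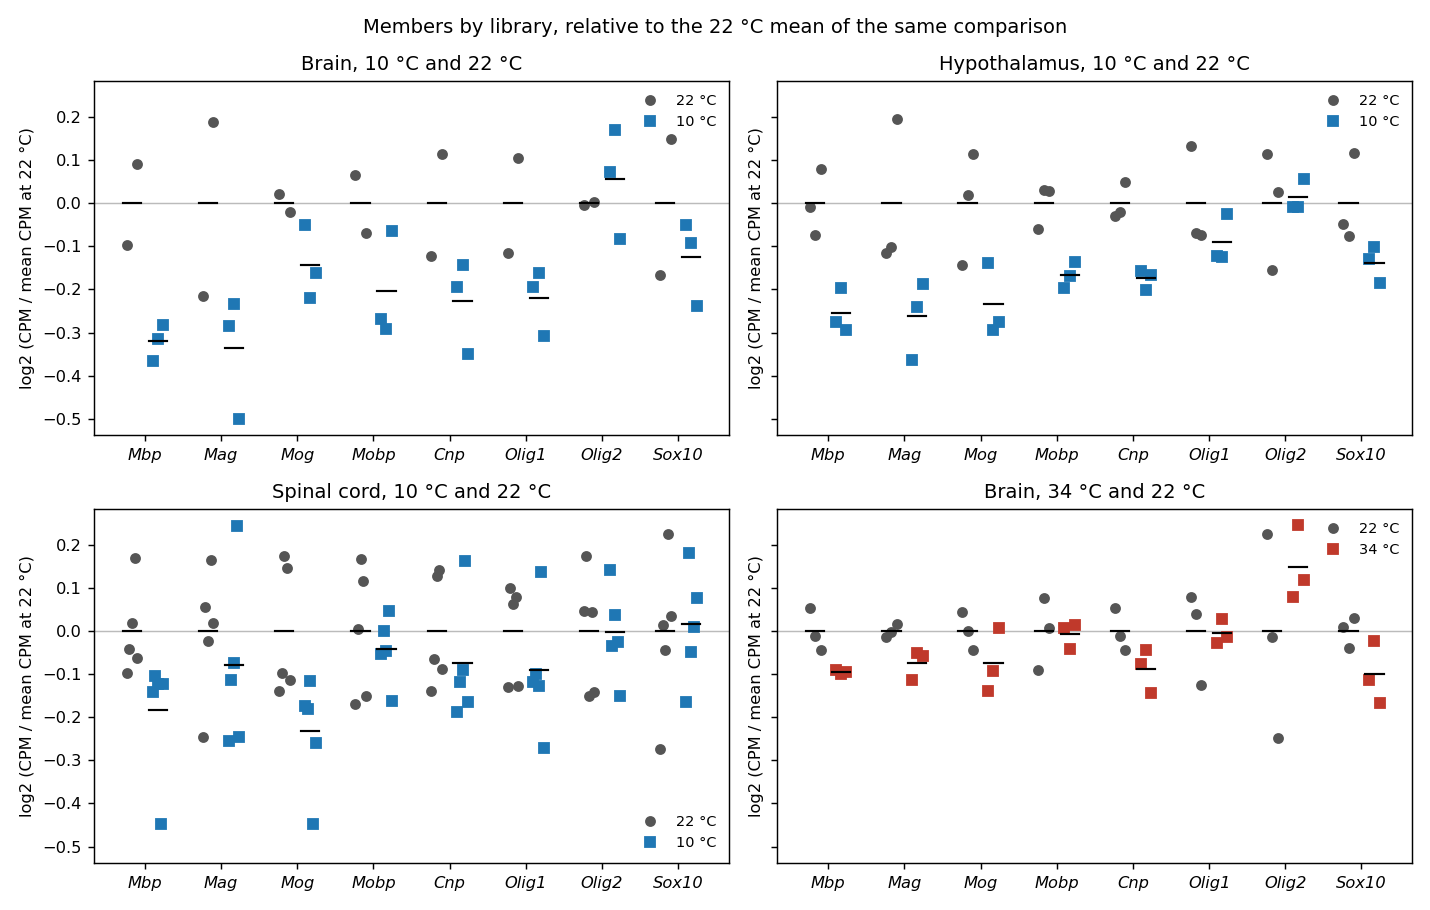
Each library's level of the 8 members as log2 of its CPM over the 22 °C mean of the same comparison, for brain, hypothalamus and spinal cord at 10 °C (blue) and for brain at 34 °C (red), with controls in grey and bars at the group means. In hypothalamus the cold libraries of Mbp, Mag, Mobp, Cnp and Sox10 lie below every control, and in spinal cord 1 cold library lies far below the others for Mbp (13451 CPM) and far above for Mag (1277 CPM).

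In hypothalamus, the region that holds the thermoregulatory centre, the same direction was seen with less spread. Again 7 of 8 members had a log2 fold change below 0, with a median of -0.17 against 0.0039 over all genes. At an unadjusted p of at most 0.05, 5 members were lower (Mbp, Mag, Mog, Mobp and Cnp), all of them structural myelin genes, where 2.67% of 14526 genes were. None was called, where 0.578% of genes were, and none had an adjusted p under 0.05 by edgeR's quasi-likelihood or exact test, while DESeq2 gave 3 (Mbp 0.000226, Mobp 0.0372, Cnp 0.0423). Leaving out any 1 library left 5 or 6 members with a p of at most 0.05, and without 22 °C replicate 2 Mbp reached an adjusted p of 0.0472 (-0.29).

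Mbp stood at 1637, 1728 and 1617 CPM at 10 °C and at 1968, 1882 and 2093 CPM at 22 °C. The groups were well apart, with a log2 fold change of -0.25 (SE 0.0469, adjusted p = 0.214). Cnp stood at 355, 344 and 353 CPM against 388, 390.1 and 409 CPM (-0.17, SE 0.0403, adjusted p = 0.431), and Mobp at 859, 875 and 896 CPM against 944, 1005 and 1004 CPM (-0.17, SE 0.0418, adjusted p = 0.579). Neither overlapped, and for Cnp the range within each group was smaller than the gap between the groups. Mag stood at 187, 204 and 211 CPM against 222, 224 and 275 CPM, with 1 control well above the rest (-0.26, SE 0.0776, adjusted p = 0.718). Mog, at 53.0, 47.6 and 48.2 CPM against 52.8, 59.1 and 63.1 CPM, overlapped by 1 library of each group (-0.24, SE 0.0730, adjusted p = 0.751). Without overlap 5 members were lower (Mbp, Mag, Mobp, Cnp and Sox10), where 5.71% of all genes were.

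No lineage factor had a p of at most 0.05 in hypothalamus. Sox10 stood at 38.5, 39.3 and 37.1 CPM at 10 °C and at 40.7, 40.0 and 45.7 CPM at 22 °C, separated by a small gap (-0.14, SE 0.0675, adjusted p = 0.801). Olig1 stood at 94.4, 94.2 and 101 CPM against 113, 98.0 and 97.6 CPM, where 1 control was high (-0.089, 95% interval -0.23 to 0.050). Olig2 stood at 32.03, 32.02 and 33.5 CPM against 34.9, 28.95 and 32.8 CPM, with all cold libraries inside the control range (0.012, 95% interval -0.15 to 0.18). Blood genes were higher at 10 °C in this tissue too, 4 of 4 at p of at most 0.05, where 3.5% of all genes were. The part of the blood genes in the result was not tested.

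Brain and hypothalamus were compared in 1 fit for a difference in their response to cold. No member differed between the tissues at p of at most 0.05, beside 4.73% of 14421 genes. The difference (brain minus hypothalamus) was -0.054 for Mbp (95% interval -0.25 to 0.14), -0.061 for Mag (-0.38 to 0.25), 0.11 for Mog (-0.12 to 0.34), -0.026 for Mobp (-0.22 to 0.17) and -0.040 for Cnp (-0.24 to 0.16), and -0.12 for Olig1 (-0.35 to 0.11).

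In spinal cord, where each library is 1 mouse, few of the members passed. Their median log2 fold change was -0.076 against 0.00024 over all genes, and 7 of 8 were below 0. Mbp and Mog had an unadjusted p of at most 0.05 and were lower, where 2.96% of 14382 genes were. No member was called by any of the 3 tests, where 0.271% of genes were, or had an adjusted p under 0.05 in edgeR's quasi-likelihood test.

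Mbp ranged from 13451 through a median of 16823 to 17061 CPM at 10 °C, the 5 libraries holding 16615, 17061, 16823, 13451 and 16825 CPM. The controls held 17138, 17806, 18555, 20627 and 17544 CPM. The groups did not overlap, by a narrow margin (log2 fold change -0.18, SE 0.0710, adjusted p = 0.780), and Mbp was the 1 member of which this was true, where 0.814% of all genes were lower without overlap. Mog held 312, 311, 325, 258 and 294 CPM at 10 °C and 319.7, 329, 397, 389.6 and 325 CPM at 22 °C, overlapping by few libraries (-0.23, SE 0.0794, adjusted p = 0.780). Mag, at 903, 996, 1024, 1277 and 909.6 CPM against 910.2, 1121, 1061, 1209 and 1093 CPM, overlapped fully (-0.078, 95% interval -0.29 to 0.14).

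The remaining members overlapped fully as well. Cnp ran from 1123 to 1431 CPM at 10 °C and from 1163 to 1411 CPM at 22 °C (-0.075, 95% interval -0.24 to 0.094), and Mobp from 1184 to 1369 CPM and from 1180 to 1489 CPM (-0.042, -0.19 to 0.11). Olig1 ran from 227 to 301 CPM and from 249.99 to 293 CPM (-0.090, -0.25 to 0.074). Olig2 ran from 54.6 to 66.8 CPM and from 54.6 to 68.3 CPM (-0.0038, -0.16 to 0.15), and Sox10 from 141 to 179 CPM and from 131 to 185 CPM (0.016, -0.17 to 0.20).

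A single cold library, replicate 4, decided much of this. It had the lowest Mbp and Mog of all 10 libraries and at the same time the highest Mag, Cnp and Olig1. By library totals, without TMM scaling, its Cnp was 1397 CPM, below 22 °C replicates 3 and 4 (1412 and 1402 CPM). The ratio of Mbp to Mag counts in cold replicate 4 was 10.5 against 15.9 to 18.8 in the other 9 libraries, and its ratio of Mobp to Mog counts was 5.30 against 3.67 to 4.26. Without this library 5 members had a p of at most 0.05, all lower at 10 °C: Mbp (-0.12, adjusted p = 0.577), Mag (-0.17, adjusted p = 0.584), Mog (-0.18, adjusted p = 0.548), Cnp (-0.14, adjusted p = 0.584) and Olig1 (-0.15, adjusted p = 0.548). None was called. Without 22 °C replicate 4 only 1 member had such a p.

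**Figure D3:**
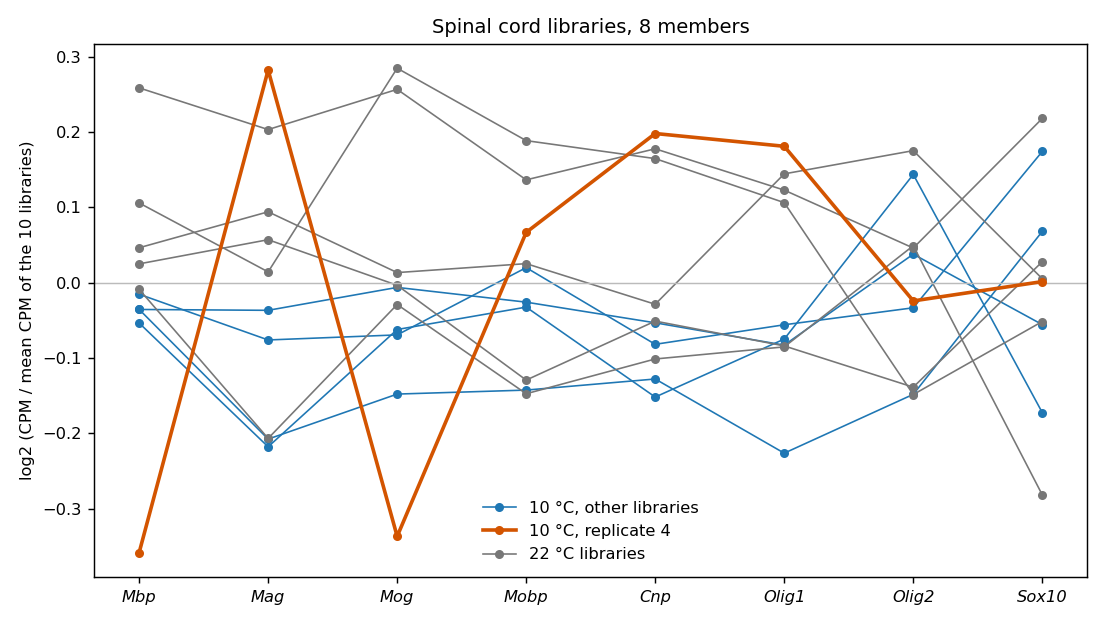
Profiles of the 10 spinal cord libraries over the 8 members, each as log2 of CPM over the mean of the 10 libraries, with 22 °C in grey, 10 °C in blue and 10 °C replicate 4 in orange. Replicate 4 is lowest for Mbp (13451 CPM) and Mog and highest for Mag, Cnp and Olig1 (301 CPM), for Cnp only with TMM scaling.

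Other cell types in spinal cord also varied between libraries. Markers of Schwann cells, which reach the cord through nerve roots, summed to 455 to 1926 CPM at 10 °C and 492.6 to 1359 CPM at 22 °C. Of the Schwann genes tested, 12 of 14 were above 0 at 10 °C (median log2 fold change 0.32), and 8 of 8 microglial genes were below 0. The median over all genes was 0.00024. The part of the Schwann and microglial genes in the members' values was not tested.

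**Figure D4:**
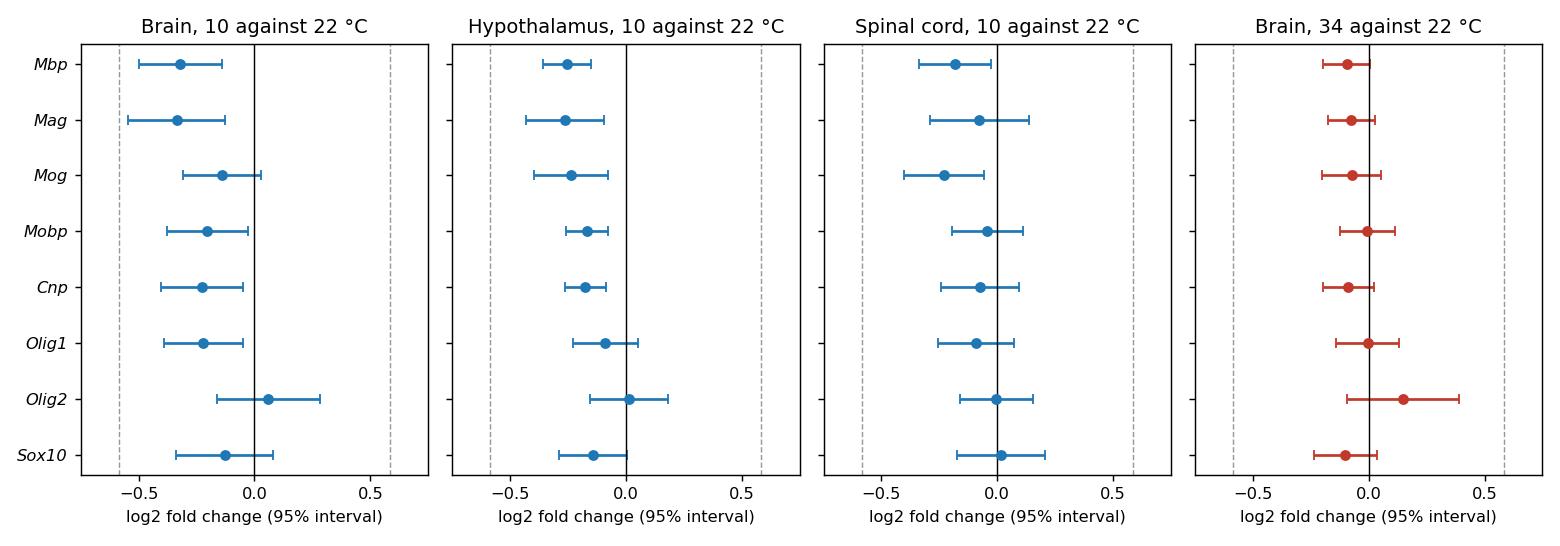
Log2 fold change of the 8 members with 95% intervals from the edgeR fit in brain, hypothalamus and spinal cord at 10 °C and in brain at 34 °C, each against its own 22 °C libraries, with dashed lines at a fold change of 1.5. Most points lie left of 0 and every point lies inside the dashed lines, from -0.34 for Mag in cold brain to 0.15 for Olig2 in warm brain.

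Warm exposure was compared in brain alone, since hypothalamus and spinal cord of warm mice are not analysed here. No member had an unadjusted p of at most 0.05, where 2.64% of 13978 genes had, and none was called, where 0.193% were. With the exact test and DESeq2 the number called was also 0. The log2 fold changes ran from -0.10 for Sox10 and Mbp to 0.15 for Olig2, with a median of -0.074 against 0.00028 over all genes, and 7 of 8 were below 0. The cold and warm brain comparisons have separate controls.

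Mbp stood at 2968, 2950 and 2960 CPM at 34 °C, nearly identical among the libraries, and at 3283, 3138 and 3064 CPM at 22 °C. The groups did not overlap (-0.096, SE 0.0454, adjusted p = 0.9997). Mag, at 262, 274 and 273 CPM against 281, 284 and 287 CPM, did not overlap either (-0.075, 95% interval -0.18 to 0.027), and Cnp, at 450.6, 460.88 and 430.4 CPM against 493.5, 471 and 460.91 CPM, was apart by a hair (-0.087, -0.20 to 0.024). Among all genes, 3.73% were lower at 34 °C without overlap, beside these 3 members. Mog ran from 79.8 to 88.4 CPM against 85.2 to 90.6 CPM, Mobp from 327 to 339 CPM against 316 to 354 CPM, and Olig1 from 98.0 to 102 CPM against 91.6 to 106 CPM, all overlapping. Olig2, at 24.6, 27.6 and 25.2 CPM against 27.2, 23.02 and 19.6 CPM, had the widest interval (0.15, -0.092 to 0.39). Cerebellar markers varied between the libraries of this set. They summed to 125, 171 and 64.8 CPM at 34 °C and to 160, 261 and 43.7 CPM at 22 °C, and their part was not tested.

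The members also differed between brain and hypothalamus at 22 °C, a comparison that serves as a scale for the effects of temperature. In it, 6 members had an adjusted p under 0.05, as did 70% of 14437 genes, and 3 members were called. Mbp (log2 fold change 1.11, SE 0.0695, adjusted p = 4.76e-09) and Cnp (0.72, adjusted p = 7.26e-07) were called higher in brain, as were 17.8% of genes, and Olig2 (-0.66, SE 0.103, adjusted p = 5.21e-05) was called lower, as were 22.7%. Mobp (0.44, adjusted p = 3.23e-05), Mag (0.40, adjusted p = 0.00466) and Mog (0.29, adjusted p = 0.00632) were higher in brain by less than 1.5-fold. Olig1 (0.19, adjusted p = 0.0610) and Sox10 (0.037, adjusted p = 0.749) did not pass. With the brain library that stood apart included, 1 member, Olig2 (-0.83, adjusted p = 0.0309), had an adjusted p under 0.05 and 2 were called, Olig2 and Mbp (0.88, adjusted p = 0.0631).

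Mbp therefore stood at 4141 CPM in brain and 1920.3 CPM in hypothalamus. The Olig pair was split, with Olig1 at 113 and 99.6 CPM and Olig2 at 19.8 and 31.2 CPM. Genes of oligodendrocyte precursors, the dividing cells that give rise to oligodendrocytes, were counted beside them. Of 11 tested, 7 had an adjusted p under 0.05 and were lower and 2 were higher. Among all genes, 70% had such a p in either direction. The precursor genes were led by Cspg4 (NG2 proteoglycan, -1.35), Sox11 (-1.09), Vcan (-1.05) and, in the other direction, Bcas1 (0.81), a gene of newly formed oligodendrocytes.

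Other genes of the myelin sheath were read beside the members, from a list of textbook genes. This and the other gene lists were chosen with earlier results of these data known. The genes were read in the same libraries as the members, so their counts are not independent of the members' result. Of 20 further membrane and cytoplasmic genes of myelin, 11 were lower at p of at most 0.05 in cold brain, where 3.82% of all genes were, and none higher (median log2 fold change -0.18). The smallest p belonged to Tmem125 (-0.46, adjusted p = 0.225) and Gsn, the actin-severing protein gelsolin (-0.28, adjusted p = 0.335). These cold brain values leave out the control library that stood apart, and the count with it included is not given here. In hypothalamus 8 were lower, where 2.67% of all genes were, and none higher (median -0.13), led by Opalin, an oligodendrocyte glycoprotein (-0.40, adjusted p = 0.431), and Mal, a proteolipid of myelin membranes (-0.20, adjusted p = 0.594). In spinal cord 4 were lower, where 2.96% of all genes were, and none higher (median -0.087), with Tmem125 (-0.19, adjusted p = 0.780) and Pllp, the proteolipid plasmolipin (-0.26, adjusted p = 0.780), first. In warm brain 3 were lower, where 1.42% of all genes were, and none higher (median -0.063), with Gjb1, the gap junction protein connexin 32 (-0.23, adjusted p = 0.9997), and Cntn2, an axonal and glial adhesion molecule (-0.13, adjusted p = 0.9997). None of these 20 was called in the 4 temperature comparisons, and none had an adjusted p under 0.05 in edgeR's quasi-likelihood test.

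Genes that make myelin lipids, the galactolipids and cholesterol of the sheath, were lower in some cases and higher in others in cold brain. There 3 of 15 were lower at p of at most 0.05 and 2 higher, where 3.82% and 5.03% of all genes were, among them Fa2h, which hydroxylates sphingolipid fatty acids (-0.28, adjusted p = 0.446), and Sgpp1, a sphingosine phosphate phosphatase (0.21, adjusted p = 0.484), while Idi1, an isomerase of the cholesterol pathway, was called higher (0.86). In hypothalamus 2 were lower, beside 2.67% of all genes, the sulfatide synthase gene Gal3st1 (-0.26, adjusted p = 0.759) and Fa2h (-0.24, adjusted p = 0.771). In spinal cord 5 were lower, beside 2.96% of all genes, and 14 of 15 below 0 (median -0.12), led by the cholesterol synthesis genes Hmgcs1 (-0.18, adjusted p = 0.780) and Sqle (-0.11, adjusted p = 0.780). In warm brain 3 were lower, beside 1.42% of all genes, and 13 of 15 below 0 (median -0.090), among them Cyp51, a demethylase of cholesterol synthesis (-0.27, adjusted p = 0.9997). These genes are active in neurons and astrocytes too.

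Of 15 other transcription factors and regulators of the lineage, 1 was lower at p of at most 0.05 in cold brain, 1 in hypothalamus, 2 in spinal cord and 1 in warm brain. Over all genes the shares were 3.82%, 2.67%, 2.96% and 1.42%, so that counts this small lie near the background. The genes were Zfp536 in brain (-0.17, adjusted p = 0.560), Id2, an inhibitor of differentiation, in hypothalamus (-0.16, adjusted p = 0.759), Gpr17 (-0.19, adjusted p = 0.780) and Zfp536 (-0.13, adjusted p = 0.780) in spinal cord, and Sox8, a relative of Sox10, in warm brain (-0.22, adjusted p = 0.9997). The counts of precursor genes were as small. Of 11 tested, 2 were lower in cold brain, Bcas1 (-0.22, adjusted p = 0.376) and Enpp6 (-0.25, adjusted p = 0.546), which both mark the step from precursor to myelinating cell. In hypothalamus Bcas1 was lower (-0.18, adjusted p = 0.751) and Sox11, a factor of immature cells, higher (0.17, adjusted p = 0.751), where 3.5% of all genes were higher. In spinal cord Pdgfra, the receptor that defines the precursor, was lower (-0.18, adjusted p = 0.780), and in warm brain Cspg4 was higher (0.17, adjusted p = 0.9997), where 1.22% of all genes were, and Bcas1 lower (-0.11, adjusted p = 0.9997). Bcas1 had such a p in 3 of the 4 comparisons.

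Among Schwann cell genes, Egr2 (Krox20) was the exception in brain. As a transcription factor it drives peripheral myelination, and in neurons it is an activity-dependent gene. It was called higher in cold brain, at 11.4 against 3.95 CPM (log2 fold change 1.59, SE 0.213, adjusted p = 0.000931), and called lower in warm brain (-1.52, adjusted p = 0.9997).

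Outside the central nervous system the 8 genes fell into separate patterns. Over the 78 libraries of other tissues, Olig2 was at 0 in 67 and never above 2 counts, which bounds it below the floor of 3 counts in each library. Mobp was at 0 in 63 libraries and reached 2.63 CPM (38 counts) in 1 ingSAT library at 22 °C, and Mog was at 0 in 48 and reached 0.418 CPM (8 counts). Sox10 was at 0 in 13 libraries and reached 3.38 CPM, Olig1 was at 0 in 32 and reached 7.14 CPM, and Mag was at 0 in 1 and reached 6.62 CPM. Mbp (0.224 to 157 CPM, median 52.0) and Cnp (7.76 to 231 CPM, median 20.2) were found in every library.

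Within the 8-tissue table, and outside brain and hypothalamus, Mbp, Cnp and Mag were highest in spleen. At 22 °C, Mbp stood at 12.8 RPKM in spleen, 8.68 in ingSAT, 7.65 in ileum, 6.66 in iBAT, 4.68 in pgVAT and 0.225 in liver. Cnp stood at 57.3 RPKM in spleen, 10.5 in ingSAT and 10.1 in ileum. Mag stood at 1.0004 RPKM in spleen, 0.434 in ingSAT and 0.258 in pgVAT, and was lowest in iBAT (0.0576). In the other tables, which are not ranked against these, bone marrow held 17.9 RPKM of Mbp, 43.1 of Cnp and 1.39 of Mag, and quadriceps 1.54 of Mbp. Sox10 was ordered differently within the 8-tissue table: its highest levels outside brain and hypothalamus were 0.848 RPKM in ingSAT and 0.689 in iBAT, tissues with sympathetic and sensory nerve.

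Bone marrow, with 6 single mice in each group, was tested by exact permutation of 3 members, two-sided, with 0.00216 the smallest p the design allows. Mag was 4.13 ± 0.422 CPM at 10 °C and 5.68 ± 0.899 CPM at 22 °C (SD, n = 6 and 6, exact permutation p = 0.00649). Cnp went the other way, 191 ± 12.3 CPM against 157 ± 18.3 CPM (exact permutation p = 0.00649). Mbp was 147 ± 5.67 CPM against 151 ± 5.57 CPM (exact permutation p = 0.186). The ranges of the groups overlapped for all 3, at 3.36 to 4.56 and 4.31 to 6.62 CPM for Mag and at 177 to 214 and 139 to 186 CPM for Cnp. The p-values are unadjusted over the 3 tests.

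Among the members that passed the abundance filter, the largest change with temperature was that of Olig1 in warm iBAT. Olig1 rose at 34 °C to 4.57, 2.53 and 4.48 CPM from 0.147, 0.654 and 0.712 CPM at 22 °C, without overlap, where 24.1% of all genes were higher without overlap. The study describes the 22 °C libraries as single mice and those at 34 °C as 2 single mice and a pool of 2. Its methods text instead gives pools of 2 mice for every organ of the warm experiment. The log2 fold change was 2.90 (SE 0.539, adjusted p = 0.00917), between 2.49 and 3.22 when any 1 library was left out, and called under every alternative, where 12.2% of 12331 genes were called higher. By library totals the mean of Olig1 was 0.457 CPM at 22 °C and 4.27 CPM at 34 °C. It therefore passed the abundance filter only through the 34 °C libraries. Olig2 had 0 counts in all 6 libraries. In the cold experiment Olig1 in iBAT was at 0.643, 1.09 and 0.700 CPM at 10 °C and at 0.468, 1.23 and 0.459 CPM at 22 °C, with no separation.

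Liver was the other tissue with Olig1. It held 5.10, 4.53 and 3.89 CPM at 10 °C and 6.99, 4.52 and 4.99 CPM at 22 °C (-0.29, adjusted p = 0.459), and 4.73, 6.72 and 4.85 CPM at 34 °C against 3.57, 4.25 and 4.67 CPM (0.39, adjusted p = 0.520), where the warm libraries lay just above their controls, as did those of 8.54% of genes. Olig1 is a gene of a single annotated transcript, and 157 bases of its exon are shared with the lincRNA Gm15966 on the opposite strand. Whether counting used strand is not given in the sources used here, so reads of the 2 genes cannot be told apart there.

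**Figure D5:**
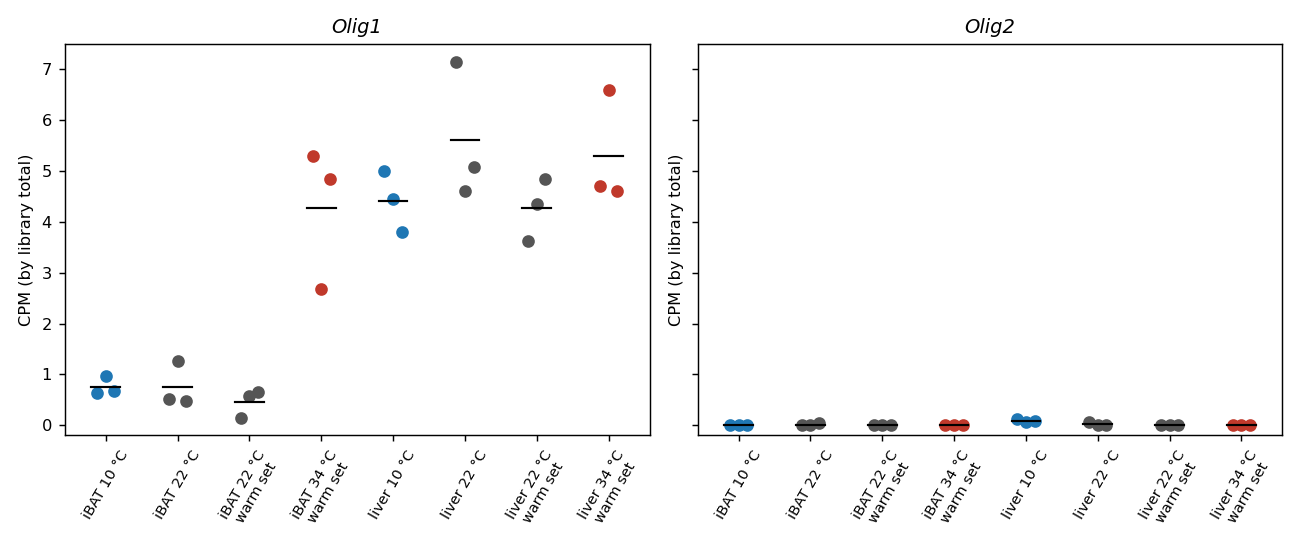
Olig1 (left) and Olig2 (right) in CPM by library total in iBAT and liver, 1 point per library with bars at the mean, for 10 °C (blue), 22 °C (grey) and 34 °C (red). Olig1 in iBAT at 34 °C stands above the 22 °C libraries of the warm set and near the level of liver, and Olig2 is at or near 0 throughout.

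In ingSAT after cold, 1 member and several genes of peripheral nerve were called. Of 4 members tested 1 was called, where 9.14% of 13982 genes were called lower: Mag, at 1.16, 0.936 and 0.888 CPM against 2.20, 1.77 and 1.39 CPM, without overlap, where 16.4% of genes were lower without overlap (-0.83, SE 0.347, adjusted p = 0.174). The call is fragile: p was 0.0694 by the exact test and 0.119 by DESeq2, and it was also lost when most single libraries were left out. With no filter beyond 1 count Mag was not called and Mobp was (-4.37, adjusted p = 0.0921), at 1, 1 and 0 counts at 10 °C against 9, 38 and 2 counts at 22 °C. Mbp (-0.33, adjusted p = 0.299), Cnp (-0.32, adjusted p = 0.286) and Sox10 (-0.59, adjusted p = 0.441) did not pass. Of the Schwann genes, 5 of 11 tested were called lower, Prx, Dhh, Drp2 and Ngfr among them, and 1, the cadherin gene Cdh19, higher (0.80, adjusted p = 0.107), with a median of -0.79. Prx, periaxin of peripheral myelin, fell from 17.5, 10.4 and 5.34 CPM to 6.80, 4.18 and 4.74 CPM (-1.07, adjusted p = 0.167). The groups overlapped, and Pmp22 did not pass (-0.51, adjusted p = 0.288).

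In cold iBAT no member was called, where 13.2% of 12791 genes were. Mbp was at 70.8, 69.8 and 67.4 CPM at 10 °C and 48.1, 50.3 and 62.3 CPM at 22 °C (0.37, SE 0.122, adjusted p = 0.0854), and Cnp at 10.5, 9.31 and 8.14 CPM against 11.6, 10.9 and 13.5 CPM (-0.37, adjusted p = 0.169). Neither overlapped, where 16.4% of genes were higher and 16.8% lower without overlap, and both stayed under the 1.5-fold limit. Schwann genes were below 0 in 11 of 11 tested, where the median over all genes was -0.024. Of them 2 were called lower, Prx among them (-0.71, adjusted p = 0.170), where 13.2% of all genes were called in either direction. In warm iBAT Prx rose to 2.57, 2.61 and 3.90 CPM from 1.44, 1.55 and 1.18 CPM (1.12, adjusted p = 0.0251), and Mbp (0.12), Cnp (0.27) and Sox10 (-0.25) did not pass. In pgVAT none of the 3 members tested was called, where 7.94% of genes were (Mbp -0.36, Mag -0.63, Cnp -0.11).

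In ileum, spleen, liver and quadriceps 1 member was called among those tested, Cnp in warm ileum. In ileum at 10 °C none was called, where 2.71% of genes were (Mbp -0.084, Cnp -0.053, Sox10 0.19). In ileum at 34 °C Cnp was called lower, where 1.26% of genes were, at 27.997, 21.3 and 19.02 CPM against 34.5, 25.9 and 45.0 CPM (-0.63, SE 0.230, adjusted p = 0.594), but the groups overlapped. Sox10, the marker of enteric glia, was under the abundance filter there, and stood at 1.23, 1.40 and 1.44 CPM at 34 °C against 0.523, 0.551 and 0.258 CPM at 22 °C. Under edgeR's own filter it was tested and called higher (1.60, adjusted p = 0.616).

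In spleen none of 3 members was called, where 2.68% of genes were. Mag stood at 4.62, 4.92 and 5.92 CPM against 4.40, 3.62 and 4.21 CPM (0.33, adjusted p = 0.544), and Mbp at 94.4, 105 and 103 CPM against 111, 107 and 107 CPM (-0.11, adjusted p = 0.597), both without overlap, where 7.25% of genes were higher and 8.46% lower without overlap, and Cnp was at 0.012. No member was called in liver at 10 °C, where 3.28% of genes were (Mbp -0.27, Cnp 0.25), or at 34 °C, where 3.38% were (Cnp 0.046). None was called in quadriceps at 10 °C, where 3.35% of genes were (Mbp 0.054, Cnp -0.18), or at 34 °C, where 1.25% were (Mbp 0.22, Cnp -0.16). At an unadjusted p of at most 0.05, regardless of fold, there was again no member in pgVAT, cold ileum, spleen, liver or quadriceps. By the exact test and DESeq2 the numbers called in iBAT, pgVAT, ileum, liver, spleen and quadriceps were the same as by the quasi-likelihood test.

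Genes whose pattern was most like that of each member were named by Pearson correlation of log2 CPM. Over the 16 tissue and temperature means of the 8-tissue table, the points are dominated by brain and hypothalamus against the rest, and the closest genes were broadly neural. Mobp was nearest to Calb1 (r = 0.998), Mog to Vsnl1 (0.996), Mag to Bend6 (0.995), Mbp to Krt222 (0.987) and Sparcl1 (0.986), Cnp to Madd (0.991), Olig1 to Snap47 (0.9898), Olig2 to Lrrc4b (0.989) and Sox10 to Adcy2 (0.991). Over the 10 spinal cord libraries, each taken less the mean of its temperature, Mag was nearest to Phlpp1 (0.9895) and Syt3 (0.978), Mog to Arsg (0.985), and Mbp to Plekhb1 (0.978). Without 10 °C replicate 4, the library that stood apart, these correlations were 0.982, 0.973, 0.983 and 0.921. Among the members themselves in the 10 libraries, Mbp went with Mog (0.86), Mag with Cnp (0.80) and Olig1 (0.78), and Mbp against Mag (-0.40). Without that library these were 0.77, 0.61 and 0.57, and that of Mbp and Mag turned to 0.63.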

How the data were processed

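RNA of mouse tissues was sequenced in bulk in 106 libraries, and the authors deposited raw read counts per gene in 4 tables, aligned to mm10 with STAR and counted with HTSeq. The submitters' processing notes name STAR 2.5.3a, Picard 1.141 and HTSeq 0.6p1. Temperatures were taken from the sample titles, because the treatment text in the labels gives 34 °C for every sample. Identifiers of the 8-tissue table were matched to symbols through GENCODE M21 (21583 of 21647), whose GRCm38 assembly is that of mm10.

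Only the libraries of a comparison entered its fit (edgeR 4.0.16, R 4.3.3), with TMM scaling, genes with an average log2 CPM above 0, and the two-sided quasi-likelihood F-test with Benjamini-Hochberg adjustment over all genes tested. Calls need a fold change above 1.5 together with an unadjusted p no higher than 0.05. CPM are TMM-scaled within a comparison, except in bone marrow, outside the comparisons and for marker sums, where they are scaled by library totals. RPKM divide those by the union of exons, and likeness used log2 CPM with a prior count of 2. Quadriceps at either temperature was set against all 6 libraries at 22 °C, since the labels do not say which belong to which experiment. Library totals ran from 4262403 to 62880248 counts. The 8-tissue table came from another kit and site than the others, and no comparison crosses tables. Reads carry no molecular identifiers, so a floor of 3 counts covers counting error only. Per the study's description, replicates are pools of 2 mice, single mice in spinal cord and bone marrow, and in warm-set iBAT single mice with 1 pool. For warm-set iBAT its methods text instead gives pools of 2 mice.

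Alternatives were edgeR's exact test, DESeq2 1.42.0, library totals only, filterByExpr, no filter beyond 1 count, an adjusted p under 0.05 as the call, each library left out, the replicate number as a block, all 3 brain libraries at 22 °C, exon length by the longest transcript and a prior count of 0.5. Quadriceps controls matched by name, and likeness in spinal cord without 10 °C replicate 4, were added after seeing the data. Scripts were tested on simulated data. The members and the gene lists were chosen with earlier results of these data known. Named are the 8 members, from each list the genes with an adjusted p under 0.05 (at most 4, largest change first) or otherwise the 2 with the smallest p, Prx and Pmp22 outside the central nervous system, and up to 3 genes most like each member. Some genes that these rules would name are not reported here; they stay in the list counts. Elsewhere genes were named after their values were seen, where a count was 5 or fewer.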

Additional observations from a re-analysis of the deposited data

Results flagged for a closer look

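Of 24 gene and group combinations with 4 to 10 libraries in the fitted comparisons, 3 held a library far from the rest. Chance gives about 1 in 20 for independent combinations in which a library can differ. Mobp and Olig2 were at 0 in every quadriceps library at 22 °C and could not be flagged there. Genes read in the same libraries are not independent, so no excess over chance is drawn from this. In spinal cord at 10 °C, replicate 4 had Mbp at 13451 CPM beside 16615 to 17061 CPM in the other 4, and the same library had Cnp at 1431 CPM beside 1123 to 1202 CPM. In quadriceps at 22 °C, 1 library had Cnp at 15.8 CPM beside 10.3 to 11.4 CPM. By library totals, without TMM scaling, it was 12.7 CPM beside 10.1 to 12.3 CPM.

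At 10 °C the log2 fold changes of 2 members had opposite signs in different tissues, each with no overlap between the libraries. That of Mag was 0.33 in spleen, where it did not pass (adjusted p = 0.544), and -0.34 in brain, -0.26 in hypothalamus and -0.83 in ingSAT. That of Mbp was 0.37 in iBAT and -0.32 in brain, -0.25 in hypothalamus, -0.18 in spinal cord and -0.11 in spleen, where it did not pass (adjusted p = 0.597). These differences between tissues were not tested.

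Bone marrow lay outside the fitted comparisons and held members above the floor of 3 counts: over its 12 libraries the median was 148 CPM for Mbp, 4.48 CPM for Mag and 181 CPM for Cnp.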

How the results depend on the processing

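No member was called in brain, hypothalamus or spinal cord by temperature under any alternative run, and Olig1 in warm iBAT was called under all of them. The number of members with an unadjusted p of at most 0.05 was less stable. With all 3 brain libraries at 22 °C it was 0 in cold brain, where Mog (0.052), Mobp (0.039), Olig1 (0.021), Sox10 (0.13) and the median (0.030) turned above 0, and 3 in brain against hypothalamus (2 called, 1 with an adjusted p under 0.05), where Olig1 (-0.039) and Sox10 (-0.21) turned below 0. The difference between the tissues' responses then turned above 0 for Mbp (0.19), Mag (0.14), Mobp (0.21), Cnp (0.13), Olig1 (0.12) and the median (0.20). With library totals only, 1 member had such a p in warm brain, and Sox10 was -0.077 in brain against hypothalamus (the median of all genes moved from -0.014 to -0.13) and -0.012 in the difference of responses.

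The replicate numbers did not pair the samples in any tissue (lowest correlation of deviations -0.69 in spleen, -0.028 in brain, -0.14 in hypothalamus and -0.062 in spinal cord). With the replicate block, 1 member had such a p in spinal cord, Olig2 was -0.0045 in cold brain and 0.00064 in spinal cord, and Mag in ingSAT was not called (0 members, log2 fold change -0.82, adjusted p = 0.287). Under filterByExpr Olig2 was 0.00048 in spinal cord. In ingSAT the exact test, DESeq2 and the adjusted p as the call gave 0 members too. With the adjusted p as the call there were 6 in brain against hypothalamus and 0 in warm ileum. Warm ileum had 2 under filterByExpr and with no filter beyond 1 count, by which cold liver had 1 (Mobp, -4.99, from 1 control library).

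With single libraries left out, members with such a p numbered 1 to 5 in cold brain, 5 to 6 in hypothalamus, 1 to 5 in spinal cord, 0 to 1 in warm brain and 5 to 7 in brain against hypothalamus, where 2 to 4 were called. Calls ran from 0 to 2 in ingSAT, 0 to 1 in pgVAT and 0 to 2 in warm ileum. Signs turned for Sox10 in cold brain (-0.27 to 0.045), Olig2 in hypothalamus (-0.059 to 0.070), Mobp (-0.081 to 0.0037), Olig2 (-0.043 to 0.047) and Sox10 (-0.046 to 0.078) in spinal cord, Mobp (-0.048 to 0.033) and Olig1 (-0.064 to 0.038) in warm brain and Sox10 in brain against hypothalamus (-0.13 to 0.19). In the difference of responses they turned for Mbp (-0.15 to 0.045), Mag (-0.25 to 0.16), Mobp (-0.0995 to 0.042), Cnp (-0.15 to 0.086), Olig2 (-0.019 to 0.12), Sox10 (-0.12 to 0.20) and the median (-0.13 to 0.076).

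By the longest transcript, members changing place in the order of levels numbered 4 in spinal cord at 22 °C and 2 at 10 °C, 2 in hypothalamus at 10 °C and 2 in warm-set brain at each temperature. With a prior count of 0.5, 14 of the 24 most alike genes over tissues were shared. Without 10 °C replicate 4, an alternative added after seeing the data, 6 of the 24 over spinal cord libraries were shared. Over all genes the calls in cold brain were 112 by the quasi-likelihood test, 54 by DESeq2, 224 with no filter and 393 with all 3 controls. They were 84, 37 by DESeq2 and 257 with no filter in hypothalamus, 39, 88 under filterByExpr and 229 with no filter in spinal cord, and 27, 90 and 196 in warm brain. The causes were not tested.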
